A study of Mus musculus with 14 samples.

Results

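The 9 genes described here cover the route by which the colon makes and exports immunoglobulin A (IgA), namely Pigr on the epithelial side, Jchain, Mzb1 and Tnfrsf17 in plasma cells, Cd79a, Cd79b and Ms4a1 in B cells, Pou2af1 in both lymphocyte stages, and Cxcl13, a chemokine that B cells follow. They were chosen by matching the accession of each array probe to these gene symbols, which gave 10 probes, with Jchain measured by 2 of them and every other gene by 1. They are 9 of 19096 genes that could be named among the 41174 probes of the array, and all 10 probes passed the filter on low signal. Probes of the immunoglobulin heavy and light chain genes could not be named by the accession match and are not analysed here.

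IgA is secreted by plasma cells in the lamina propria, which arise from B cells that were activated in lymphoid follicles of the gut wall. The J chain joins IgA monomers into polymers, and the polymeric immunoglobulin receptor, encoded by Pigr, binds these at the basolateral side of epithelial cells, carries them across the cell and releases them into the lumen with a fragment of itself attached. B cells depend on the B cell receptor, whose signalling chains are encoded by Cd79a and Cd79b, and most plasma cells no longer display Ms4a1 (CD20) but take survival signals through Tnfrsf17 (BCMA).

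Colons came from female C57BL/6 mice aged 4 to 6 months on chow, each carrying 2 floxed alleles of Nr3c1, the gene of the glucocorticoid receptor (GR). Flox mice had no Cre and served as controls, and GR iKO mice also carried Cre under the Villin promoter, which acts in the intestinal epithelium, so that B cells, plasma cells and stroma of GR iKO mice are not the cells targeted. Mice of each genotype drank regular water (4 Flox and 4 GR iKO) or 2.5% dextran sulfate sodium (DSS), a polymer that injures the colonic epithelium, for 7 days (3 Flox and 3 GR iKO). Total RNA of the colon from 1 mouse was hybridised to each of 14 one-colour Agilent arrays, so cell types were not separated.

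Levels are given as log2 signal minus that of the 75th percentile probe of the same array, and a difference of 1 is a doubling. The share of probes well above background ran from 62.6% to 71.2% over the arrays, and arrays of the same group correlated at 0.958 to 0.989 across probes. The median SD between replicates was 0.17 to 0.18 on water and 0.26 to 0.34 on DSS, so values on DSS are less certain. The arrays sat on 4 slides, which each held several groups, whereas each group had its own position on the slide, so that position and group cannot be told apart. Nr3c1 was at 1.19 ± 0.14 in Flox mice and 0.39 ± 0.16 in GR iKO mice given water (mean ± SD, n = 4 each), and at 1.27 ± 0.20 and 0.43 ± 0.05 on DSS (n = 3 each), with no overlap between genotypes. The position of its probe with respect to the floxed exon was not determined. Between genotypes, Nr3c1 had an adjusted p of 0.00911 on water and of 0.0922 on DSS in limma, so it was not called on DSS.

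Reference promoters, from 250 bases before to 50 after the start of a gene, were found for 6 of the 9 members (Pigr, Jchain, Cd79a, Tnfrsf17, Pou2af1 and Cxcl13) in RefSeq on build GRCm38.p6. They were searched on both strands for 4 motifs of B cell and plasma cell factors. These were the octamer ATGCAAAT, bound by the factors that Pou2af1 assists, the unfolded protein response element TGACGTG, the interferon-stimulated response element (ISRE) GAAANNGAA, and the composite PU.1 and IRF element GGAANNGAA, which shares its last letters with the ISRE. Among 32851 promoters of the same length, these letters occurred in 1.74%, 2.01%, 8.56% and 8.24%. Of the 6 member promoters, Tnfrsf17 held an ISRE match and Pou2af1 held the unfolded protein response element, and no other match was found in these windows. Both genes fell in Flox mice on DSS, and the 250 bases before their starts are shown because they hold these matches, which are a description of the letters and not sites measured here. Capitals mark the motif, which on the strand of Tnfrsf17 reads as the reverse complement and starts 100 bases before the start of the gene, and which starts 61 bases before the start of Pou2af1.
Tnfrsf17, chr16:11313559-11313808, plus strand: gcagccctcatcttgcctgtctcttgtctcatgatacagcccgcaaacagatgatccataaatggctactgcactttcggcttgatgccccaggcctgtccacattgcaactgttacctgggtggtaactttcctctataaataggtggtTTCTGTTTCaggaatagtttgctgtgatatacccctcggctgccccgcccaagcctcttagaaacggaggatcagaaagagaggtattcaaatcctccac
Pou2af1, chr9:51213440-51213689, plus strand: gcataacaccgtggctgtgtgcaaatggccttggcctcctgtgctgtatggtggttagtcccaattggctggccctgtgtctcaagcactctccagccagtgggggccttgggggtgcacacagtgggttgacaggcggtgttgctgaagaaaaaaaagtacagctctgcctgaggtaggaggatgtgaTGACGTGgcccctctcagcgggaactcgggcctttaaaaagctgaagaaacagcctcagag

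To ask how colitis alters these transcripts when epithelial GR is present, Flox mice on DSS were compared with Flox mice on water. Lower levels after DSS were found for all of the plasma cell genes, for Pigr, Pou2af1, Cxcl13 and for 2 of the 3 B cell genes. In all, 8 of 9 members fell at an adjusted p under 0.05 and the remaining gene, Cd79a, was not called. Over the whole array, 25.4% of 29519 tested probes were called lower and 21.8% higher in this comparison. The median difference of the members was −3.14, against −0.09 for all tested probes. Array signal differed between these groups too, with 75th percentiles of 261.9 to 674.9 intensity units on DSS, lowest in mouse 4, against 707 to 1003 on water, and spike-in RNA at log2 12.77 to 13.07 against 11.24 to 11.86. The part of this in the differences was not tested. When arrays were scaled to the spike-in RNA, 9 of 9 members were called lower, but so were 25165 of the 29519 tested probes. In whole-colon RNA, fewer cells of a type and less RNA per cell cannot be told apart.

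Among the plasma cell genes, Jchain was at 5.77, 6.14, 6.56 and 6.45 in the 4 Flox mice on water and at 1.50, 1.67 and 4.13 in Flox DSS mice 1, 2 and 4. All 3 DSS arrays were below all water arrays, with mouse 4 closest to them. Jchain fell by 3.80 ± 0.48 (SE), which is a 13.9-fold lower signal (limma, adjusted p = 6.71e-05). Its other probe gave −4.52 ± 0.58 (adjusted p = 7.22e-05).

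Mzb1 encodes an endoplasmic reticulum protein that assists antibody assembly. It was at 1.31, 1.60, 1.89 and 1.72 on water and at −3.99, −3.76 and −0.88 on DSS, again with mouse 4 highest of the DSS arrays and still below every water array. The difference was −4.50 ± 0.61 (adjusted p = 0.000111), or 22.7-fold. Tnfrsf17, the receptor for the plasma cell survival factors APRIL and BAFF, was at −0.23, 0.24, 0.44 and 0.44 on water and at −5.18, −4.12 and −2.98 on DSS. Here the 3 DSS arrays lay well below the water arrays. The difference was −4.32 ± 0.45 (adjusted p = 1.83e-05), or 19.9-fold. With other processing of the arrays it ran from −6.68 to −2.56.

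Pou2af1, a coactivator of octamer-binding factors in B cells and plasma cells, was at 1.98, 2.01, 2.27 and 2.48 on water and at −2.30, −1.90 and 0.99 on DSS. Its groups did not overlap, and mouse 4 was within 1 unit of the lowest water array. It fell by 3.26 ± 0.66 (adjusted p = 0.00164).

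Of the B cell genes, Cd79b and Ms4a1 fell, whereas Cd79a, measured by a dim probe, was not called. Cd79b was at 1.94, 2.14, 2.50 and 2.75 on water and at −1.57, −0.47 and 1.80 on DSS, a fall of 2.41 ± 0.79 (adjusted p = 0.0243). Ms4a1 was at 0.81, 1.15, 1.54 and 1.60 on water and at −3.56, −2.75 and 0.72 on DSS, a fall of 3.14 ± 0.97 (adjusted p = 0.0183). For both genes, the array of DSS mouse 4 was just under the lowest water array and the other DSS arrays were far below. Without Flox DSS mouse 1 the differences were −1.67 (adjusted p = 0.178) for Cd79b and −2.29 (adjusted p = 0.137) for Ms4a1, and without mouse 2 they were −2.22 (adjusted p = 0.102) and −2.70 (adjusted p = 0.0991), so neither call held without either of these arrays. Without mouse 4 they were −3.36 and −4.43.

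The probe of Cd79a, the other signalling chain, was dim. In Flox mice on water its signal was 34.79 to 59.9 intensity units, against 3481 to 4934 for Cd79b. It was not well above background on Flox DSS array 1. It was at −4.71, −4.50, −4.05 and −3.61 on water and at −6.26, −3.74 and −4.13 on DSS. The groups overlapped, and the difference was −0.49 (95% interval −1.73 to 0.74, adjusted p = 0.503). The probe was within or above its water range on Flox DSS arrays 2 and 4, where that of its partner chain Cd79b was below its own. Whether the chains changed differently was not tested.

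Cxcl13, made by stromal cells of lymphoid follicles, was at 0.05, 0.66, 0.72 and 1.02 on water and at −2.29, −1.64 and 0.55 on DSS. DSS mouse 4 lay inside the water range. The difference of −1.74 ± 0.67 passed narrowly (adjusted p = 0.0477), and it did not pass with slide as a block (−1.65, adjusted p = 0.0731) or without Flox DSS mouse 1 (−1.16, adjusted p = 0.275) or 2 (−1.48, adjusted p = 0.185).

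On the epithelial side, Pigr was at 6.53, 5.80, 6.19 and 6.08 on water and at 3.96, 4.39 and 5.29 on DSS. The groups did not overlap, and DSS mouse 4 was again the highest of the DSS arrays. Pigr fell by 1.60 ± 0.29 (adjusted p = 0.000738), a 3.04-fold lower signal. The fall was smaller than those of the plasma cell genes, although the difference between genes was not tested.

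**Figure D1:**
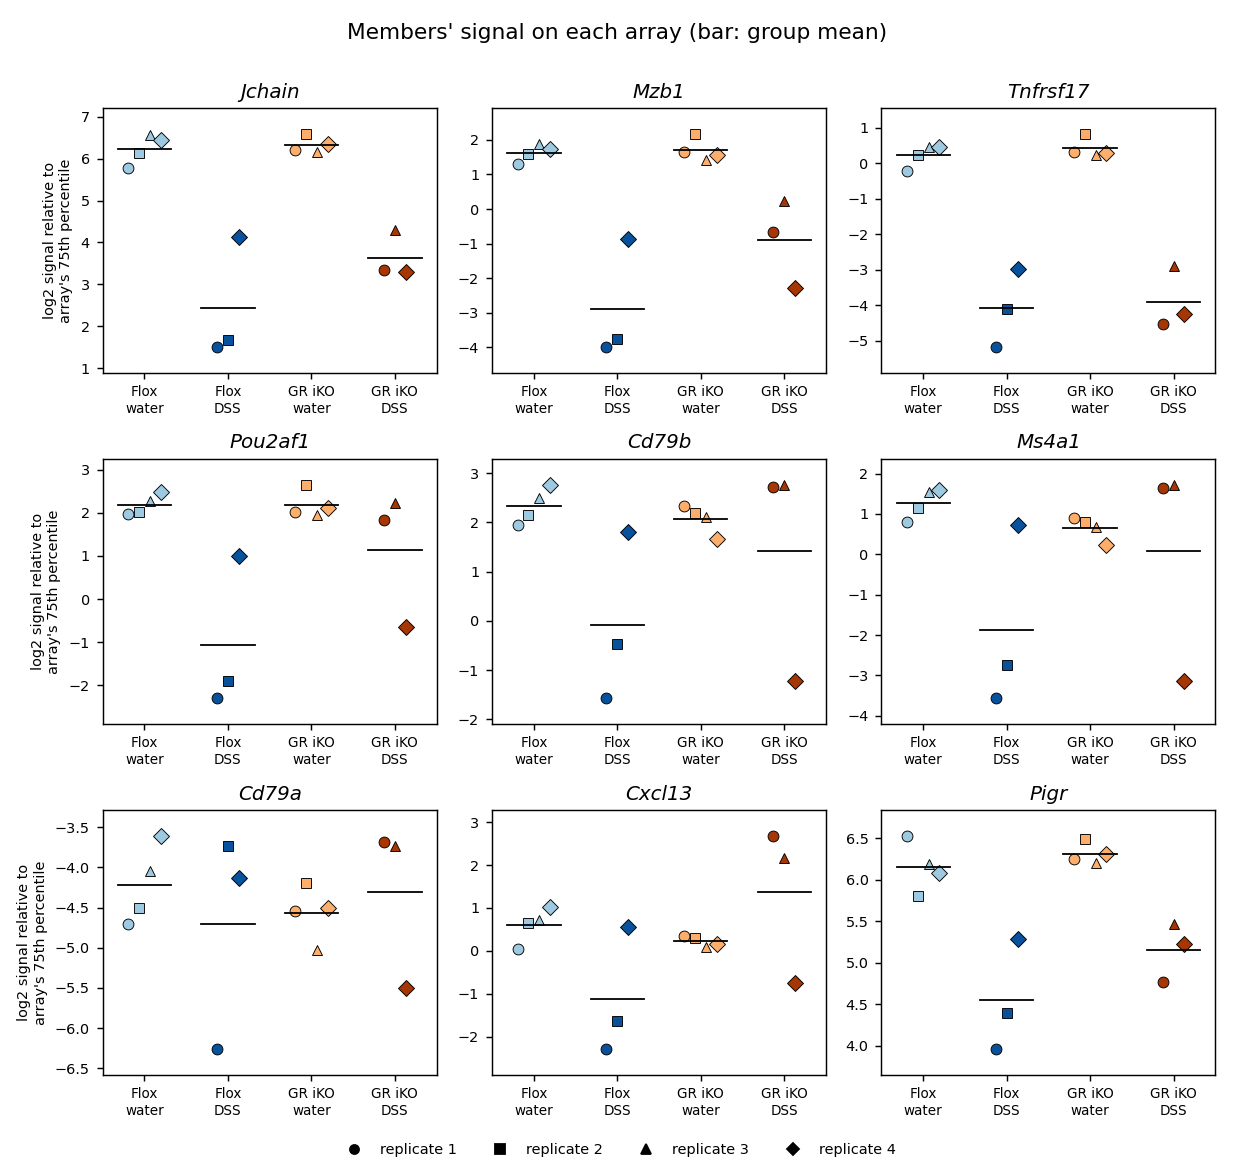
Level of each of the 9 members on each array, in log2 units against the 75th percentile of each array, with points for single mice and bars for group means in the 4 groups. On DSS, Jchain, Mzb1, Tnfrsf17 and Pigr lie below the water arrays in both genotypes, while Cd79b, Ms4a1, Pou2af1 and Cxcl13 are spread widely, for instance from −3.13 to 1.72 for Ms4a1 in GR iKO mice.

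The same comparison was made in mice without epithelial GR. In GR iKO mice, 4 of 9 members fell on DSS, namely Pigr, Jchain, Mzb1 and Tnfrsf17, and none rose. In this comparison 19.7% of all tested probes were called lower and 19.0% higher. The median difference of the members was −1.04, against −0.02 for all tested probes. The 75th percentiles were 493 to 713.1 on DSS against 739.8 to 962.8 on water, and spike-in RNA was at 11.78 to 12.43 against 11.28 to 11.95.

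Jchain was at 6.20, 6.59, 6.15 and 6.36 in the 4 GR iKO mice on water and at 3.33, 4.29 and 3.29 in GR iKO DSS mice 1, 3 and 4. It fell by 2.69 ± 0.48 (limma, adjusted p = 0.00103), or 6.44-fold, and its other probe gave −3.50 ± 0.58 (adjusted p = 0.000632). Mzb1 was at 1.66, 2.17, 1.41 and 1.57 on water and at −0.65, 0.23 and −2.27 on DSS, a fall of 2.60 ± 0.61 (adjusted p = 0.0054). In both genes all DSS arrays were below all water arrays.

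Tnfrsf17 was at 0.30, 0.82, 0.23 and 0.29 on water and at −4.54, −2.91 and −4.26 on DSS. It had the largest fall of the 9 members in GR iKO mice, 4.31 ± 0.45 (adjusted p = 3.18e-05), or 19.9-fold, and its value was within 0.01 of that in Flox mice. With other processing of the arrays the difference ran from −5.27 to −2.99. The GR iKO response minus the Flox response then ran from −0.43 to 1.41, so the near equality belongs to the reported fit. Pigr was at 6.25, 6.49, 6.20 and 6.31 on water and at 4.77, 5.47 and 5.23 on DSS. All DSS arrays were below all water arrays, and Pigr fell by 1.15 ± 0.29 (adjusted p = 0.00744), or 2.23-fold.

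The genes of B cells and follicles were not called in GR iKO mice, where their DSS arrays overlapped the water range or lay on both sides of it. Cd79b was at 2.33, 2.19, 2.10 and 1.67 on water and at 2.71, 2.76 and −1.23 on DSS. Ms4a1 was at 0.90, 0.79, 0.67 and 0.24 on water and at 1.64, 1.72 and −3.13 on DSS. For both genes, DSS mice 1 and 3 were above all water arrays and DSS mouse 4 was far below them. The differences were −0.66 (95% interval −2.38 to 1.06, adjusted p = 0.542) for Cd79b and −0.57 (−2.68 to 1.53, adjusted p = 0.672) for Ms4a1.

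Cxcl13 had a similar arrangement, at 0.35, 0.31, 0.08 and 0.16 on water and at 2.68, 2.16 and −0.75 on DSS, with DSS mouse 4 less far below. DSS mice 1 and 3 held the highest Cxcl13 levels of all 14 arrays. The difference was 1.14 (−0.31 to 2.58, adjusted p = 0.2), and without DSS mouse 4 it was 2.19 (adjusted p = 0.0168), so this array decided the call. Pou2af1 was at 2.03, 2.65, 1.95 and 2.12 on water and at 1.84, 2.23 and −0.64 on DSS, a difference of −1.04 (−2.48 to 0.39, adjusted p = 0.237). Cd79a was at −4.54, −4.19, −5.03 and −4.51 on water and at −3.68, −3.74 and −5.50 on DSS, a difference of 0.26 (−0.97 to 1.50, adjusted p = 0.748).

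**Figure D2:**
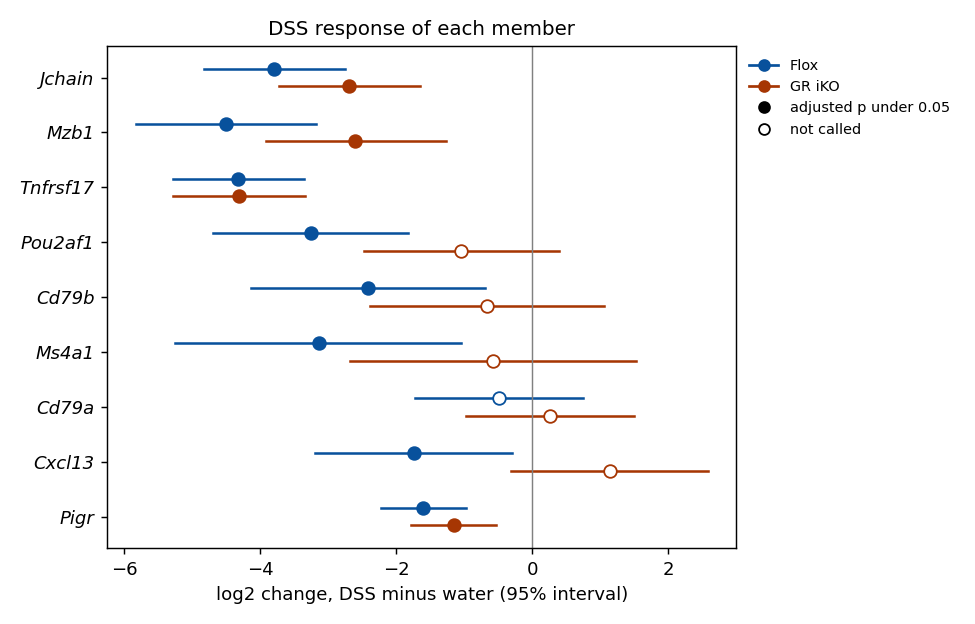
Difference between DSS and water for each of the 9 members in Flox and in GR iKO mice, in log2 units with 95% intervals from limma, where filled points have an adjusted p under 0.05. In the reported fit, Tnfrsf17 has nearly the same value in both genotypes (−4.32 and −4.31), whereas Cxcl13 is at −1.74 in Flox and 1.14 in GR iKO mice, with wide intervals.

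Scanner output placed arrays of both treatments on the same slides, so that DSS and water could be compared within a slide. In Flox mice, the differences within slides 1, 2 and 4 were −4.28, −4.46 and −2.32 for Jchain, −4.95, −4.36 and −3.42 for Tnfrsf17, and −2.57, −1.41 and −0.79 for Pigr. In GR iKO mice, within slides 1, 3 and 4, they were −1.86, −2.87 and −3.07 for Jchain, −3.14, −4.84 and −4.54 for Tnfrsf17, and −0.73, −1.48 and −1.08 for Pigr. These genes, like Mzb1 at −5.30, −5.35 and −2.59 in Flox and −1.17, −2.31 and −3.84 in GR iKO mice, were lower on DSS within every slide. For Ms4a1 the Flox values were −4.37, −3.90 and −0.89, and the GR iKO values were 1.05, 0.74 and −3.37, so that the sign in GR iKO mice differed between slides. With slide as a block, 7 members were called lower in Flox, with Cxcl13 lost, and the same number, 4, in GR iKO mice.

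To ask whether epithelial GR affects these genes in the uninjured colon, GR iKO mice were compared with Flox mice on water. None of the 9 members differed at an adjusted p under 0.05 in limma, where 0.0237% of all tested probes, 7 in number, were called and 985 had an unadjusted p under 0.05. Member differences ran from −0.63 to 0.19, with 4 above and 5 below 0 and a median of 0, against −0.01 for all tested probes, and groups overlapped for each gene. Pigr differed by 0.16 (95% interval −0.21 to 0.53), Jchain by 0.09 (−0.53 to 0.72), Mzb1 by 0.07 (−0.72 to 0.87) and Pou2af1 by 0.00 (−0.86 to 0.86). These intervals leave room for changes of under 1 unit in either direction. The widest one was that of Ms4a1, at −0.63 (−1.89 to 0.64), and its levels in GR iKO mice were lower on each of the 4 slides, at −0.14, −0.36, −0.64 and −1.36.

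On DSS, GR iKO mice had higher mean levels than Flox mice for 9 of 9 members, with a median difference of 1.49 against 0.03 for all tested probes, but no member was called. Here 0.0203% of tested probes were called, 6 in number, and 5205 had an unadjusted p under 0.05. The largest differences were 2.49 (95% interval 0.64 to 4.34, adjusted p = 0.165) for Cxcl13, 2.21 (0.38 to 4.05, adjusted p = 0.204) for Pou2af1 and 1.98 (0.28 to 3.68, adjusted p = 0.217) for Mzb1. Ms4a1 differed by 1.94 (−0.76 to 4.64, adjusted p = 0.456), Cd79b by 1.49 (−0.71 to 3.69, adjusted p = 0.49) and Jchain by 1.20 (−0.13 to 2.53, adjusted p = 0.335). Pigr differed by 0.61 (−0.19 to 1.41, adjusted p = 0.427), Cd79a by 0.40 (−1.18 to 1.99, adjusted p = 0.833) and Tnfrsf17 by 0.19 (−1.05 to 1.43, adjusted p = 0.909). The groups overlapped for every member.

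The 2 slides that held DSS mice of both genotypes gave opposite signs. On slide 1, which held Flox DSS mouse 1 and GR iKO DSS mouse 3, all 9 members were higher in the GR iKO mouse, with differences of 4.45 for Cxcl13, 4.53 for Pou2af1, 5.29 for Ms4a1, 2.79 for Jchain and 1.51 for Pigr. On slide 4, which held mouse 4 of each genotype, all 9 were lower in the GR iKO mouse, at −1.30 for Cxcl13, −1.63 for Pou2af1, −3.85 for Ms4a1, −0.84 for Jchain and −0.06 for Pigr. Without Flox DSS mouse 4, 3 members were called higher in GR iKO mice, namely Jchain (2.05, adjusted p = 0.0383), Mzb1 (2.98, adjusted p = 0.0383) and Pou2af1 (3.25, adjusted p = 0.0411). With a quality weight for each array, Jchain (1.73, adjusted p = 0.0442), Mzb1 (2.27, adjusted p = 0.0426), Pou2af1 (2.41, adjusted p = 0.0456) and Cxcl13 (2.45, adjusted p = 0.0499) were called. These fits called 810 and 3493 of all tested probes, in that order, against 6 in the reported fit. With slide as a block no member was called.

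Whether DSS acted differently in the genotypes was tested as an interaction, the response of GR iKO mice minus that of Flox mice. It was above 0 for 9 of 9 members, from 0.01 to 2.88 with a median of 1.75 against 0.03 for all tested probes. No member and none of the 29519 tested probes (0%) was called by limma, although 4368 probes had an unadjusted p under 0.05. Cxcl13 had the largest value, 2.88 (95% interval 0.83 to 4.92, adjusted p = 0.203), followed by Ms4a1 at 2.57 (−0.41 to 5.55, adjusted p = 0.412) and Pou2af1 at 2.21 (0.19 to 4.24, adjusted p = 0.299). Tnfrsf17 was at 0.01 (−1.36 to 1.37, adjusted p = 0.999), with an interval that allows a difference of over 1 unit either way. The members shared arrays, so their common sign is 1 pattern of the same mice rather than 9 results.

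**Figure D3:**
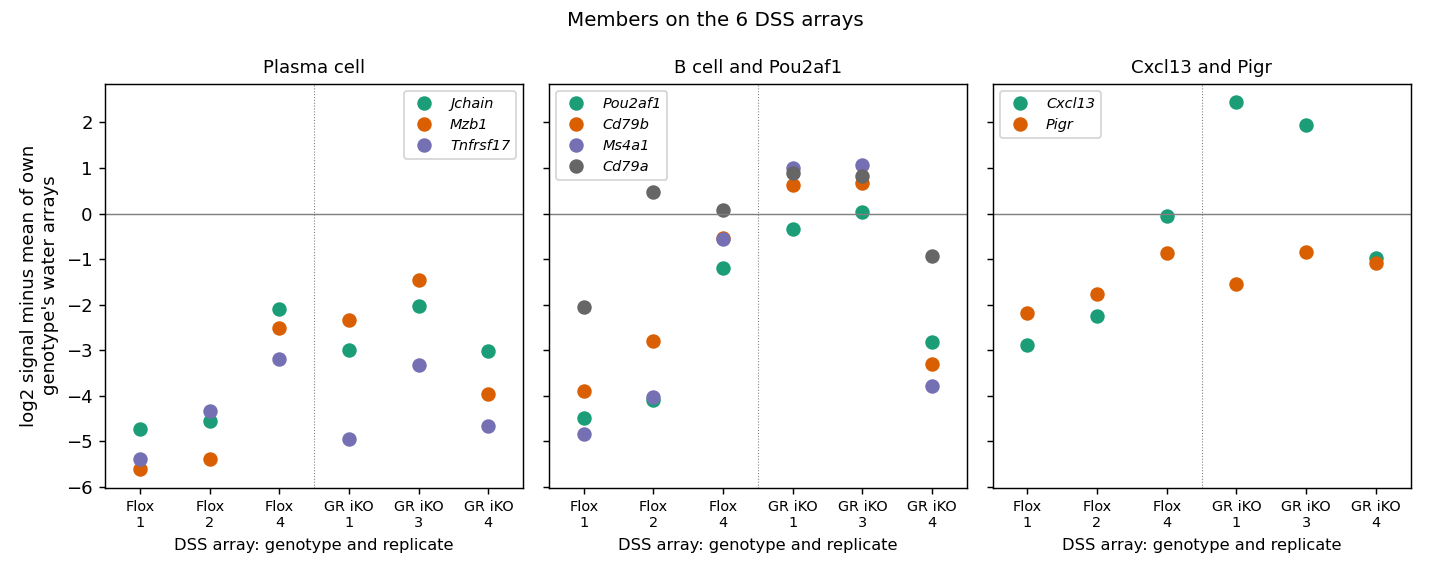
Level of the members on each of the 6 DSS arrays minus the mean of the water arrays of the same genotype, in log2 units, with panels for the plasma cell genes, for the B cell genes with Pou2af1, and for Cxcl13 with Pigr. Plasma cell genes and Pigr are below 0 on all 6 arrays, while Cd79b, Ms4a1 and Cxcl13 are above 0 on GR iKO arrays 1 and 3. On GR iKO array 4, Cd79b (−3.3) and Ms4a1 (−3.78) are far below 0, and Cxcl13 is at −0.97.

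Other genes of the mature B cell, 19 of which were tested, were examined from a list that leaves out the members. In Flox mice 12 of 19 fell on DSS and 1 rose, with a median of −2.45. Those with the largest falls were Fcmr, the receptor for IgM (−3.56 ± 1.06, adjusted p = 0.0158), Fcer2a, a low-affinity IgE receptor (−3.54 ± 0.89, adjusted p = 0.00605), Cr2, a complement receptor (−3.35 ± 1.09, adjusted p = 0.0235), and Tnfrsf13c, the BAFF receptor (−3.17 ± 0.90, adjusted p = 0.0119). The count of 12 dropped to 1 without Flox DSS mouse 1 and to 1 without mouse 2, was 13 without mouse 4, and was 7 with normexp, a model-based background correction, and 4 when only probes well above background on every array were tested. With normexp, Fcer2a was at −0.65 (adjusted p = 0.082) and Cr2 at −0.73 (adjusted p = 0.171).

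In GR iKO mice none of the 19 fell and 3 rose, with a median of −0.19. These were Cd72, a coreceptor of B cells (1.14 ± 0.33, adjusted p = 0.016), Blnk, an adaptor of B cell receptor signalling (0.71 ± 0.15, adjusted p = 0.00352), and Bcl11a, a transcription factor of B cell development (0.34 ± 0.12, adjusted p = 0.0382). All 3 were above every GR iKO water array on each DSS array, also in mouse 4, where the median gene of the list was at −2.69. Which cells gave the signal of these 3 genes in whole-colon RNA was not determined. When arrays were scaled to spike-in RNA, Cd72 was at 0.18, and Blnk and Bcl11a turned to −0.25 and −0.61, so that none of the 19 was called higher. The call of Bcl11a was also lost with slide as a block (adjusted p = 0.0534), with the compared groups alone (adjusted p = 0.126) and in other fits, and without GR iKO DSS mouse 3 the count of 3 became 1. No gene of the list was called between genotypes on water or on DSS or in the interaction, where medians were −0.26, 1.73 and 2.11. In the interaction 13 of 19 were called higher with spike-in scaling, and on DSS 2 were called higher and 1 lower without Flox DSS mouse 4. These fits called 8809 and 810 of all tested probes, in that order, against 0 and 6 in the reported fit. On single arrays, the median gene of the list stood at −3.64, −3.31 and −0.36 from its own water mean in Flox DSS mice 1, 2 and 4, and at 0.82, 0.92 and −2.69 in GR iKO DSS mice 1, 3 and 4. In GR iKO DSS mice 1 and 3, 18 and 19 of 19 genes were above their water means, and in mouse 4 it was 4 of 19.

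Of 3 germinal centre genes, 1 fell and 1 rose in each genotype, with medians of 0.61 in Flox and 0.62 in GR iKO mice. Rgs13, a regulator of G protein signalling found in germinal centre B cells, fell in Flox mice (−2.81 ± 0.56, adjusted p = 0.00142) as well as in GR iKO mice (−3.39 ± 0.56, adjusted p = 0.000631). Which cells gave the Rgs13 signal in whole-colon RNA was not determined. Bcl6, which is also expressed by T cells and myeloid cells, rose by 2.16 ± 0.20 in Flox mice (adjusted p = 1.09e-05, but −0.20 with spike-in scaling) and by 1.92 ± 0.20 in GR iKO mice (adjusted p = 3.71e-05, but 0.97 and adjusted p = 0.071 with spike-in scaling).

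Of 13 other plasma cell genes, 4 fell and 2 rose in Flox mice (median −0.41), and 4 fell and 3 rose in GR iKO mice (median −0.48). The falls in Flox mice numbered 9 with array quality weights and 2 among probes well above background on every array. With spike-in scaling, 13 fell in Flox and 7 in GR iKO mice, and none was called higher. Irf4, a transcription factor needed for plasma cells, fell by 3.60 ± 0.53 in Flox (adjusted p = 0.000193), and by 1.49 in GR iKO mice (adjusted p = 0.0418), and with normexp it was at −0.80 in Flox mice (adjusted p = 0.0555). Eaf2, an elongation factor partner, fell by 2.95 ± 0.33 in Flox (adjusted p = 3.23e-05) and by 2.75 ± 0.33 in GR iKO mice (adjusted p = 8.62e-05). Txndc5, a protein disulfide isomerase, fell by 1.39 ± 0.19 in Flox mice (adjusted p = 0.000129). Tnfrsf13b (TACI), a receptor related to Tnfrsf17, was close to background in all Flox mice on DSS (well above it on none of these arrays) and was at least 2.25-fold lower there (adjusted p = 0.0118), and it differed by −2.46 ± 0.56 in GR iKO mice (adjusted p = 0.00443). With normexp, Tnfrsf13b turned to 0.06 in Flox mice and was at −0.26 in GR iKO mice, neither of which was called.

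The genes that rose in GR iKO mice included Prdm1, a transcription factor of plasma cells that T cells and epithelium also express (2.06 ± 0.33, adjusted p = 0.000558, and 1.10 with spike-in scaling), and Cd38, a surface enzyme of many leukocytes (1.66 ± 0.22, adjusted p = 0.000149, and 0.71 with spike-in scaling). The same genes were those that rose in Flox mice, Prdm1 by 0.89 ± 0.33 (adjusted p = 0.0441) and Cd38 by 0.95 ± 0.22 (adjusted p = 0.00381), and neither was called higher there with spike-in scaling or without Flox DSS mouse 1. No gene of the list was called between genotypes on water or DSS or in the interaction in the reported fit. On DSS, 4 were called higher in GR iKO mice without variance groups, 2 with array quality weights and 1 without Flox DSS mouse 4. These fits called 3903, 3493 and 810 of all tested probes. In the interaction, 7 were called higher with spike-in scaling and 1 with array quality weights, where 8809 and 2063 of all tested probes were called.

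Genes that guide, switch or sustain IgA cells moved both ways. Of 16 tested, 4 rose and 5 fell in Flox mice (median 0.07), and 7 rose and 2 fell in GR iKO mice (median 0.73). Single arrays moved these counts, since without Flox DSS mouse 1 or mouse 2 there were 2 rises and 1 fall in Flox mice, and without GR iKO DSS mouse 1 or mouse 3 there were 4 or 3 rises in GR iKO mice. With normexp 1 gene fell in Flox mice, and with spike-in scaling 1 rose and 14 fell there. Ccr10, the chemokine receptor of IgA plasma cells, was well above background on every water array and on no DSS array, and was at least 2.24-fold lower in Flox (adjusted p = 0.000468) and at least 2.78-fold lower in GR iKO mice (adjusted p = 0.000497), although with normexp it was at −0.09 and −0.30 and not called. Il6, a cytokine that supports plasma cells among many other actions, was at least 55.1-fold higher in Flox (adjusted p = 1.37e-07) and at least 134-fold higher in GR iKO mice (adjusted p = 3.76e-08). Aldh1a2, which makes retinoic acid, rose by 3.09 ± 0.49 in Flox mice (adjusted p = 0.000333) and by 2.08 ± 0.49 in GR iKO mice (adjusted p = 0.00563), values that became 0.73 and 1.12 with spike-in scaling. Ccl20, which draws cells bearing Ccr6 to follicles, fell by 2.09 ± 0.71 in Flox mice (adjusted p = 0.0285), a call that was lost without DSS mouse 1 (−1.68, adjusted p = 0.174) or 2 (−1.88, adjusted p = 0.133) and with normexp (−1.41, adjusted p = 0.0557). Tgfb1, a cytokine of the IgA switch, rose by 1.45 ± 0.26 in GR iKO mice (adjusted p = 0.00103, and 0.49 with spike-in scaling).

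Stromal and chemokine genes of lymphoid follicles, examined beside Cxcl13, were the next list. Of 12 tested, 6 rose and 2 fell in Flox mice (median 0.54), and 6 rose and none fell in GR iKO mice (median 1.02). Bst1, a surface enzyme, rose by 2.05 ± 0.44 in Flox mice (adjusted p = 0.0025) and by 4.13 ± 0.44 in GR iKO mice (adjusted p = 3.92e-05). Which cells gave the Bst1 signal was not determined. Ccl19, a chemokine of the T cell zone, rose by 1.81 ± 0.51 in Flox (adjusted p = 0.0112) and by 2.76 ± 0.51 in GR iKO mice (adjusted p = 0.00127). Ccl21a rose by 1.79 ± 0.20 in Flox mice (adjusted p = 2.84e-05), Pdpn, or podoplanin, by 1.63 ± 0.32 (adjusted p = 0.00133), and Ccr7, the receptor of both chemokines, by 2.38 ± 0.40 in GR iKO mice (adjusted p = 0.000789). With spike-in scaling none of the 12 was called higher in Flox mice, and Bst1, Ccl19, Ccl21a and Pdpn turned to −0.32, −0.55, −0.57 and −0.73, whereas 3 were called higher in GR iKO mice. Neither fall in Flox mice was called with slide as a block or without Flox DSS mouse 1 or 2 or Flox water mouse 3 or 4.

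**Figure D4:**
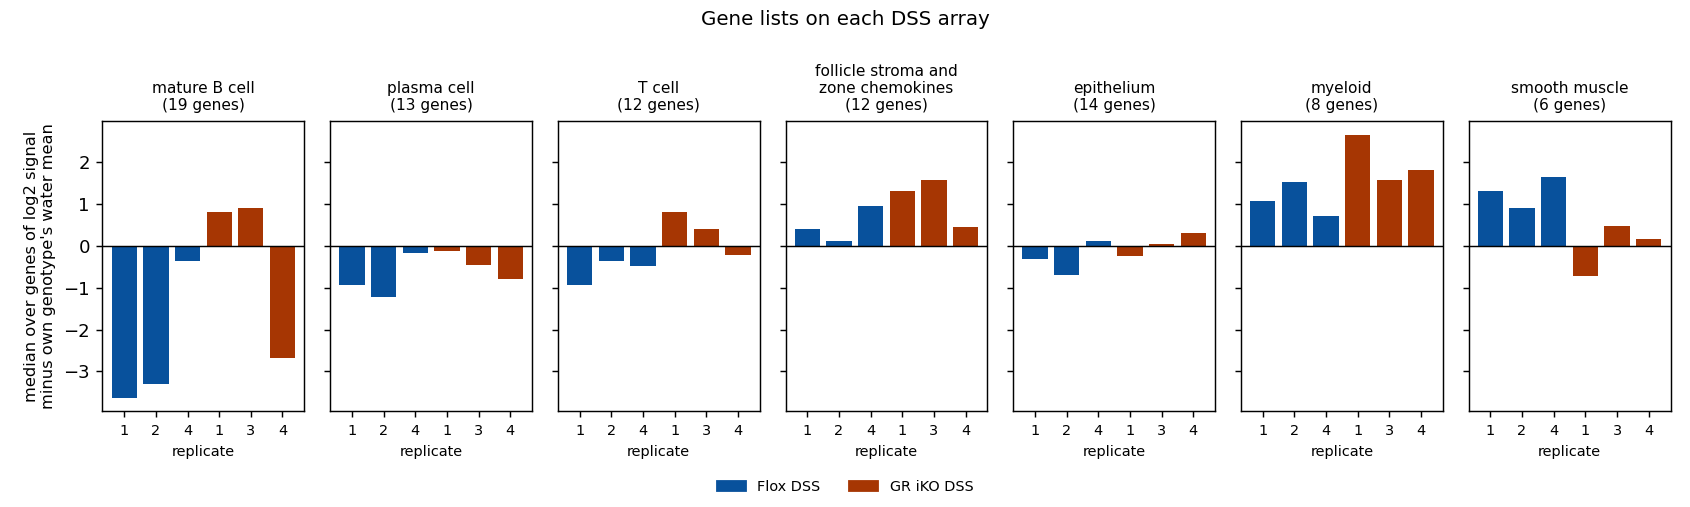
Median over the genes of each of 7 lists on the 6 DSS arrays, each gene taken relative to its mean on the water arrays of the same genotype, in log2 units. The mature B cell list reaches −3.64 in Flox DSS mouse 1 and 0.92 in GR iKO DSS mouse 3, a far wider range over arrays than that of the epithelium list, which runs from −0.69 to 0.31.

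Pigr is made by epithelial cells, so its level was also set against 14 epithelial genes. Of these, 5 fell and 2 rose in Flox mice (median −0.43), and 2 fell and 2 rose in GR iKO mice (median 0.03). In Flox mice no rise was called without DSS mouse 1 or 4, and the falls were 3 without mouse 2, 9 with array quality weights and 14 with spike-in scaling. Their mean level ran from 5.66 to 5.92 in Flox and from 5.83 to 5.97 in GR iKO mice on water, and from 5.06 to 5.78 and from 5.48 to 6.10 on DSS. Pigr minus this mean was 0.65, −0.01, 0.27 and 0.42 in Flox mice on water and −1.31, −0.67 and −0.50 on DSS. In GR iKO mice it was 0.42, 0.60, 0.23 and 0.44 on water and −0.71, −0.44 and −0.87 on DSS. All DSS arrays were below all water arrays in both genotypes. Relative to the list, Pigr changed by −1.16 in Flox and by −1.09 in GR iKO mice (exact two-sided permutation p = 0.0286 in each, the smallest that 3 against 4 arrays allow). The genotypes differed by 0.09 on water (exact permutation p = 0.657) and by 0.15 on DSS (p = 0.7, where 3 against 3 arrays cannot go below 0.1, exact permutation test).

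The vesicle machinery that carries the receptor across the epithelial cell was followed in 8 genes. In Flox mice 3 fell and 1 rose (median −0.51), and in GR iKO mice 3 fell and 1 rose (median −0.41). Rab25, a GTPase of apical recycling endosomes in epithelium, fell by 2.03 ± 0.34 in Flox (adjusted p = 0.00045) and by 1.15 ± 0.34 in GR iKO mice (adjusted p = 0.0178, lost without GR iKO DSS mouse 3 at −0.77, adjusted p = 0.125). Yes1, a kinase that acts in receptor transcytosis, fell by 0.98 ± 0.15 (adjusted p = 0.00026) and 0.53 ± 0.15 (adjusted p = 0.0153), and Rab3d, a GTPase of secretory vesicles, by 0.74 ± 0.19 (adjusted p = 0.00653) and 0.80 ± 0.19 (adjusted p = 0.00572). The Flox call of Rab3d was lost without DSS mouse 1 (−0.62, adjusted p = 0.0695) or 2 (−0.64, adjusted p = 0.06). Rab11a, a GTPase of recycling endosomes, rose by 0.68 ± 0.13 in GR iKO mice (adjusted p = 0.00164), and was at −0.28 with spike-in scaling.

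Markers of other cells in the colon wall moved beside the members. Smooth muscle genes, 6 in the list, had mean levels of 5.57 to 6.34 and 5.52 to 6.33 on water in Flox and GR iKO mice, 6.86 to 7.65 in Flox mice on DSS and 5.19 to 6.45 in GR iKO mice on DSS. Of these, 5 rose in Flox mice (median 1.30) and none was called in GR iKO mice (median 0.03), and none was called between genotypes on DSS (median −1.34). The 5 rises became 2 without Flox DSS mouse 1 and 6 falls with spike-in scaling. Without variance groups in the fit, 6 of 6 were called lower in GR iKO than in Flox mice on DSS. That fit called 3903 of all tested probes in this comparison, against 6 in the reported fit. T cell genes had mean levels of −3.21 to −2.26 and −2.84 to −2.70 on water, −3.60 to −3.01 on DSS in Flox and −3.01 to −2.05 on DSS in GR iKO mice, with 3 of 12 falling and 1 rising in Flox mice (median −0.62) and 1 rising in GR iKO mice (median 0.32). Of 8 myeloid genes, 4 rose in Flox (median 1.08) and 6 in GR iKO mice (median 1.99), and none fell. With spike-in scaling, 2 myeloid genes were called higher and 4 lower in Flox mice, and 3 higher in GR iKO mice. The 3 T cell falls in Flox mice became 0 with normexp, 1 without Flox DSS mouse 1, 6 with array quality weights and 11 with spike-in scaling. The part of these cell types in the results above was not tested.

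Finally, the genes whose profile over the 14 arrays was closest to 4 of the members were sought among 15453 genes, by the root mean square (RMS) difference of profiles centred on their own means. Pigr, whose own SD over arrays was 0.81, was nearest to Tmem30b (0.172), Fermt1 (0.183), Bcl2l14 (0.184), Insig1 (0.190) and 9130024F11Rik (0.199). Jchain, with an SD of 1.83, was nearest to Fut4 (0.362), Ern2 (0.365), Hottip (0.390), Prg2 (0.400) and Rnf186 (0.406). Cd79a, with an SD of 0.76, was nearest to Stap1 (0.432), Gm8579 (0.433), Gpr183 (0.445), Ly9 (0.461) and Gimap4 (0.469). Cxcl13, with an SD of 1.29, was nearest to H2-Oa (0.400), Ccr6 (0.418), Fam169b (0.503), Bfsp2 (0.506) and Ltb (0.536). Relative to the SD of each gene, the closest match was thus better for Pigr and Jchain than for Cxcl13 and for Cd79a, whose probe was dim.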

How the data were processed

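Per the file headers, the authors used Agilent Feature Extraction (version 12.0.0.7) on the scans. The deposited intensity used here is the processed signal of 45018 spots per array, which is background-subtracted and detrended, with small values raised to a positive surrogate. The deposited value table holds log2 values whose scaling is not given in the sources used here, and it served as an alternative. Control spots (1639 per array) and flagged spots were left out, replicate spots averaged, and the log2 75th percentile of each array subtracted. Testing was limited to probes well above background on at least 3 of 14 arrays, or 29519 probes (15536 genes). Accessions were matched to a RefSeq gene table (28223 of 29245 matched).

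Group means were fitted with limma 3.58.1 in R 4.3.3 over all 14 arrays, with 1 variance weight for water arrays (1.70) and 1 for DSS arrays (0.49), and p values adjusted by Benjamini-Hochberg over all tested probes. The study's own array test was not used here. The script was tested on simulated data. The brightest probe stood for a gene. Besides the members, up to 4 called genes per list and genotype with the largest change and no overlap between DSS and water arrays were named in 6 lists, and other lists are given by counts. Folds of probes not well above background in a whole group are lower bounds, taken between normalized means against the dimmest detected signal. Members and lists were chosen with earlier results of these data known, and 1 gene of the lists is not reported here. Groups and replicate numbers came from the sample labels, and p values measure the spread between mice. Alternatives covered weights, samples in the fit, background, scaling, filters, blocks and single arrays left out. Normexp used the median in place of the mean spot signal. The number of arrays limits the precision.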

Additional observations from a re-analysis of the deposited data

Results flagged for a closer look

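Each of the 10 member probes was examined in both water groups, which gave 20 sets of 4 values from the same mice. In 1 of these sets, 1 array stood apart from the others of its group. Tnfrsf17 was at 0.82 in GR iKO mouse 2 on water, against 0.23 to 0.30 in the other 3 mice of the group, a gap of 0.879 of the group's range. Chance would give about 1 such array in 20 independent sets, and these sets share mice and so are not independent.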

How the results depend on the processing

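Under 14 alternatives of the processing and 14 fits that each left out 1 array, the number of members called lower on DSS ran from 7 to 9 in Flox and from 4 to 5 in GR iKO mice, and when single arrays were left out, from 5 to 8 members were called in Flox and from 4 to 5 in GR iKO mice, where the fifth was Cxcl13, called higher without GR iKO DSS mouse 4. Between genotypes on water it was 0 in all of them. Between genotypes on DSS it was 4 with array quality weights and 0 to 3 with single arrays left out, and in the interaction it was 7 with spike-in scaling, where 8809 tested probes were called as well. Of 1246 values of single members, 47 changed sign, and all of these were uncalled in both fits. The calls of Jchain, Mzb1, Tnfrsf17 and Pigr on DSS held in both genotypes in every one of these fits.

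Spike-in scaling moved the median of all tested probes to −2.45 in Flox and −0.98 in GR iKO mice on DSS, and the share of calls that were higher from 46.2% to 0.839% and from 49.1% to 5.56%. It also called Cd79a in Flox (−2.85, adjusted p = 0.00241) and Pou2af1 in GR iKO mice (−2.00, adjusted p = 0.0315), and it turned Bcl6 (−0.20), Bst1 (−0.32), Ccl19 (−0.55), Ccl21a (−0.57) and Pdpn (−0.73) in Flox mice and Blnk (−0.25), Bcl11a (−0.61) and Rab11a (−0.28) in GR iKO mice below 0. Normexp moved the shares to 66.1% and 60.1% and turned Tnfrsf13b (0.06) in Flox mice above 0. Ccr10 was then at −0.09 and −0.30. The probes of Tnfrsf13b and Ccr10 were near background on DSS. The cause of these shifts was not tested for any of the genes.

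The series speaks of pairs of mice, but what a pair shares is not given in the sources used here. Deviations of same-numbered arrays correlated at −0.08 to 0.31 and not all above 0.1, so the numbers were not taken as pairs. With the replicate number as a block, 7 members were called in Flox (Cxcl13 at −1.72, adjusted p = 0.0762), 4 in GR iKO mice and none in the other comparisons. The probes called between genotypes on DSS, 6 in the reported fit, were 3903 without variance groups, 3493 with array quality weights, 159 with a trend and robust fit, 20 in the deposited table, 14 among probes well above background on all arrays, 2 with the array median, and 0 with the compared groups alone, spike-in scaling, no filter, the slide block or the replicate block. It was 810 without Flox DSS mouse 4, 716 without GR iKO DSS mouse 3 and 0 to 6 without any other array, and in the interaction 48 without GR iKO DSS mouse 3 and 0 to 2 otherwise. In the interaction, 0 became 33 without variance groups, 2063 with array quality weights, 6 with normexp, 2 with the array median and 3 with quantile scaling, the deposited table, the filter on all arrays or the trend fit. On water, 7 became 1 without variance groups, 3 with the compared groups or spike-in scaling, and 4 with normexp or the filter on all arrays. In Flox mice 13928 became 25378 with spike-in scaling and 9149 without Flox DSS mouse 1.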
